A study of Mus musculus with 60 samples.

Results

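Cemip, Ogn, Aspn and Aldh1a7 are 4 of the 10122 genes in a table of expression values from mouse fibroblasts kept at 4 temperatures. They were picked by symbol because, in unstimulated cells, their mRNA was lower at 24 °C than at 37 °C, so that comparison is described here without a test. The cells were an ear fibroblast line from adult DKI mice, named "Immortalized Ear Fibroblast GR NLS-iRFP-NLS". It was immortalised by serial passaging and carries fluorescent reporters on endogenous RelA and c-Rel in every group. All dishes spent the night at 37 °C and were moved to incubators at 24, 34, 37 or 40 °C for 2 h. RNA was then taken from unstimulated cells, or after 1 or 3 h with a cytokine at 10 ng/mL, either TNF-α or IL-1β. That gives 20 groups of 3 biological replicates, with 12 cytokine-treated and 3 unstimulated libraries at each temperature. One line was used, so the replicates are dishes of the same cells. Stimulated cells had spent 3 or 5 h at their temperature and unstimulated cells 2 h, so time with a cytokine and time at a temperature cannot be told apart in a response.

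Fibroblasts build the matrix around them from collagen, from small proteoglycans that decorate collagen, and from hyaluronan, a long unsulfated sugar chain. Cemip (also HYBID) is a hyaluronan-binding protein that skin fibroblasts need to break hyaluronan down. Ogn (osteoglycin, or mimecan) and Aspn (asporin) encode small leucine-rich proteoglycans, secreted proteins that bind collagen fibrils. Asporin also binds and inhibits TGF-β1 in cartilage. Aldh1a7 is a cytosolic aldehyde dehydrogenase of rodents and a close relative of Aldh1a1, which makes retinoic acid from retinal. It is no matrix gene, so only 3 of the 4 members fit the name of matrix-remodelling genes.

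The libraries expressed fibroblast genes throughout. The summed level of 7 measured fibroblast markers of 9 listed (Col1a1, Col1a2, Col3a1, Vim, Pdgfra, Pdgfrb, Thy1) was 5008 to 6127 FPKM at 24 °C and 4742 to 5876 at 37 °C. FPKM is fragments per kilobase of transcript, scaled to the mapped fragments of the library, so it allows levels of different genes to be compared. Of the markers of other cells, 2 of 5 for macrophages summed to 1.74 to 6.17 FPKM over all libraries, 1 of 5 for keratinocytes to 0 to 4.13, and 1 of 4 for endothelium to 0.05 to 2.5. Chondrocyte markers (3 of 6) summed to 16.8 to 24.3 FPKM at 24 °C and 12.2 to 21.2 at 37 °C. The adipocyte gene Fabp4 (1 of 3 markers) stood at 2.06 to 8.63 FPKM at 24 °C and 7.03 to 13.3 at 37 °C. The table gives no read counts. Depth estimated from the steps between low values was 3.52 to 7.67 M (mega) fragments per library, and lowest at 24 °C (4.57 ± 0.52 M at 24 °C, 6.35 ± 0.56 at 37 °C, mean ± SD, n = 15 each). The 24 °C libraries also carry later library numbers than all the others, and if they were made apart, that and the temperature cannot be told apart. In bulk RNA, fewer cells that express a gene and less of its RNA per cell cannot be told apart either.

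The members' promoters share little beyond a TATAAA match. Windows of 300 bases around each annotated start are shown because the 4 genes were picked for a lower level at the lowest temperature. Whether the genes share control was not tested. The windows are taken from RefSeq on GRCm38.p6, and all 4 members matched by symbol. Capitals mark TATAAA, or TTTATA where it is on the other strand, and in Ogn also GGAATG, the core of the site bound by TEAD factors.
Cemip, chr7:84086456-84086755, minus strand: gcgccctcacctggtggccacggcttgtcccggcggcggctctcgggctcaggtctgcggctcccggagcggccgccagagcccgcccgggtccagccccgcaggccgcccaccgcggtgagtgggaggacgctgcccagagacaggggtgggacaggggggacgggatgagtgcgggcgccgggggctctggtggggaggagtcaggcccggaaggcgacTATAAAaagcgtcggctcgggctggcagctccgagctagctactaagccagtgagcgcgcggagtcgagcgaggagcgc
Ogn, chr13:49607765-49608064, plus strand: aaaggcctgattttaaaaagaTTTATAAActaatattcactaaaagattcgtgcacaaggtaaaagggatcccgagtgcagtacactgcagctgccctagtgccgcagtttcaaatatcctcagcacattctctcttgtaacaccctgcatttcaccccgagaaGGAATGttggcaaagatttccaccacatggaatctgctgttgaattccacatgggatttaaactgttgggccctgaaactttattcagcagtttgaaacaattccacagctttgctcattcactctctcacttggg
Aspn, chr13:49544193-49544492, plus strand: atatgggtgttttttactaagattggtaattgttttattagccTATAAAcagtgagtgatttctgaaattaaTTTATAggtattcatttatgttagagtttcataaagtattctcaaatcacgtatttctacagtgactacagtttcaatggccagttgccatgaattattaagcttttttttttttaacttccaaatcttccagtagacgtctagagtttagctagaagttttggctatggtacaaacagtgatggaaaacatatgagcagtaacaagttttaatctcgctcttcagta
Aldh1a7, chr19:20727507-20727806, minus strand: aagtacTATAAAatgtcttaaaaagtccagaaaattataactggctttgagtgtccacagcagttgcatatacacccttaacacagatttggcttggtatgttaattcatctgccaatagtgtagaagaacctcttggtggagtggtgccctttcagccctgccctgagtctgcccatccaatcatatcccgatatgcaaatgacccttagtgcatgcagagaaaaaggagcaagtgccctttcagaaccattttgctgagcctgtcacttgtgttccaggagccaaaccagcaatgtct

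In Cemip the TATAAA match lies 29 to 24 bases before the start, where a TATA box is usually found. In the other 3 genes the matches lie farther away: 229 to 222 bases before the start in Ogn (2 overlapping matches, 1 on each strand), 207 to 202 and 178 to 173 in Aspn, and 244 to 239 in Aldh1a7. The Cemip window was 73.7% G or C, against 42.3% in Ogn, 31.0% in Aspn, 44.0% in Aldh1a7 and a median of 52.7% over 32851 mouse promoters of this length. TATAAA was found on either strand in 13.6% of those promoters. Searched on both strands, GGAATG was found in Ogn, 86 to 81 bases before its start, and is in 14.7% of all promoters. The AP-1 site TGANTCA, found in 7.81% of promoters, had no match in these 4 windows.

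In unstimulated cells, the values that led to the choice of these genes were as follows. Cemip stood at 1.80, 2.28 and 2.01 FPKM at 24 °C, against 11.48, 9.21 and 10.57 at 37 °C, a difference of -1.91 on the log2(FPKM + 1) scale. Ogn stood at 5.70, 8.26 and 6.74 FPKM at 24 °C, against 29.23, 20.84 and 26.77 at 37 °C (-1.75). Aldh1a7 stood at 10.93, 8.91 and 10.61 FPKM at 24 °C, against 46.89, 33.79 and 57.51 at 37 °C (-2.05). For each of these 3 genes the highest library at 24 °C lay well under the lowest at 37 °C. Aspn, the least expressed member, was listed at 0, 0.09 and 0 FPKM at 24 °C, against 2.87, 1.81 and 2.14 at 37 °C (-1.66). Adding 1 before the log makes the change of a gene as low as Aspn look smaller than its ratio. At 34 and 40 °C unstimulated cells overlapped those at 37 °C in all 4 genes.

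The comparison behind the choice used no cytokine-treated cells, but the genes were chosen with earlier results of these data known. Treated cells at 24 °C also share the cell line and later library numbers with the unstimulated ones, so their fall is no independent finding. Averaged over the 4 cytokine conditions, all 4 members were lower at 24 °C than at 37 °C in treated cells. Cemip was at 1.92 ± 0.558 FPKM in treated cells at 24 °C and 7.92 ± 2.59 at 37 °C (mean ± SD, n = 12 each), Ogn at 6.33 ± 1.31 and 22.8 ± 6.24, and Aldh1a7 at 10.1 ± 1.65 and 33.8 ± 9.21. Aspn had a median of 0.325 FPKM at 24 °C (0 to 0.65, with 1 library listed at 0), against 2.36 at 37 °C (0.95 to 3.94). It reached 1 FPKM only outside 24 °C, so its test and rank below depend in part on how genes entered the table. The log2(FPKM + 1) differences were -1.57 for Cemip (SE 0.0734, adjusted p = 1.7e-22), -1.67 for Ogn (SE 0.115, adjusted p = 1.1e-16), -1.26 for Aspn (SE 0.146, adjusted p = 7.4e-10) and -1.62 for Aldh1a7 (SE 0.135, adjusted p = 5.9e-14). These p-values are from limma with Benjamini-Hochberg adjustment over all genes, and a gene was called below 0.05. A call alone says little here, since 52.3% of all genes were called between these temperatures and 27% were called lower at 24 °C. The size of the change was less common: 1.18% of genes fell by 1 or more on this scale, and from the most lowered gene down Ogn held rank 21, Aldh1a7 rank 23, Cemip rank 34 and Aspn rank 60 of 10122. That order rests on the 1 added before the log. With 0.1 in its place the differences were -2.49 for Aspn, -1.95 for Cemip, -1.81 for Ogn and -1.71 for Aldh1a7, and with 5 they were -0.44, -0.88, -1.27 and -1.33 in that order of genes, all still called.

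The drop was present in each cytokine condition. After 1 h of TNF-α, Cemip stood at 1.72, 2.11 and 3.14 FPKM at 24 °C, against 12.19, 10.13 and 8.76 at 37 °C. After 3 h of TNF-α it stood at 1.92, 1.61 and 1.46 FPKM at 24 °C, against 4.32, 4.62 and 4.28 at 37 °C. The distance between the temperatures was thus smaller at 3 h of TNF-α, with a lower level at 37 °C. After 1 h of IL-1β Cemip had 2.86, 1.92 and 1.79 FPKM at 24 °C, against 10.34, 9.78 and 8.99 at 37 °C. After 3 h of IL-1β it had 1.83, 1.41 and 1.3 FPKM at 24 °C, against 6.51, 7.38 and 7.70 at 37 °C. No 24 °C library of any condition reached the lowest 37 °C library.

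Ogn had 6.16, 6.11 and 3.50 FPKM after 1 h of TNF-α at 24 °C, against 30.81, 18.08 and 24.40 at 37 °C. With 3 h of TNF-α it had 7.38, 7.48 and 5.83 FPKM at 24 °C, against 22.98, 14.21 and 19.49 at 37 °C. All 6 of these 24 °C libraries lay below all 6 at 37 °C. With IL-1β, Ogn had 6.26, 7.95 and 6.07 FPKM at 24 °C after 1 h, against 31.73, 17.60 and 27.27 at 37 °C. After 3 h of IL-1β it had 4.99, 6.00 and 8.18 FPKM at 24 °C, against 30.68, 14.90 and 20.97 at 37 °C. The groups did not overlap, and replicate 2 was the lowest at 37 °C each time.

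Aldh1a7 had 10.54, 10.50 and 10.02 FPKM after 1 h of TNF-α at 24 °C, against 41.85, 28.86 and 45.83 at 37 °C. After 3 h of TNF-α it had 9.52, 8.39 and 11.01 FPKM at 24 °C, against 25.95, 22.98 and 35.56 at 37 °C. At 24 °C its level was thus nearly the same at both times. With IL-1β, Aldh1a7 had 13.33, 7.80 and 10.73 FPKM at 24 °C after 1 h, against 38.02, 26.60 and 51.20 at 37 °C. After 3 h of IL-1β it had 9.51, 7.62 and 11.85 FPKM at 24 °C, against 30.29, 22.40 and 35.56 at 37 °C. Again no 24 °C library reached the 37 °C range.

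Aspn had 0.65, 0.42 and 0.30 FPKM after 1 h of TNF-α at 24 °C, against 2.46, 2.57 and 2.26 at 37 °C. After 3 h of TNF-α it had 0.14, 0.29 and 0.29 FPKM at 24 °C, against 2.71, 1.09 and 2.09 at 37 °C. In both conditions the groups stood apart. With IL-1β it had 0.23, 0.40 and 0.36 FPKM at 24 °C after 1 h, against 3.94, 1.5 and 3.25 at 37 °C. After 3 h of IL-1β it was listed at 0.35, 0.65 and 0 FPKM at 24 °C, against 3.06, 0.95 and 1.64 at 37 °C. By the depth estimate, the Aspn values at 24 °C rest on about 0 to 7.1 fragments per library (median 3.0), against a median of 28.2 at 37 °C, so their order within 24 °C cannot be read.

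**Figure D1:**
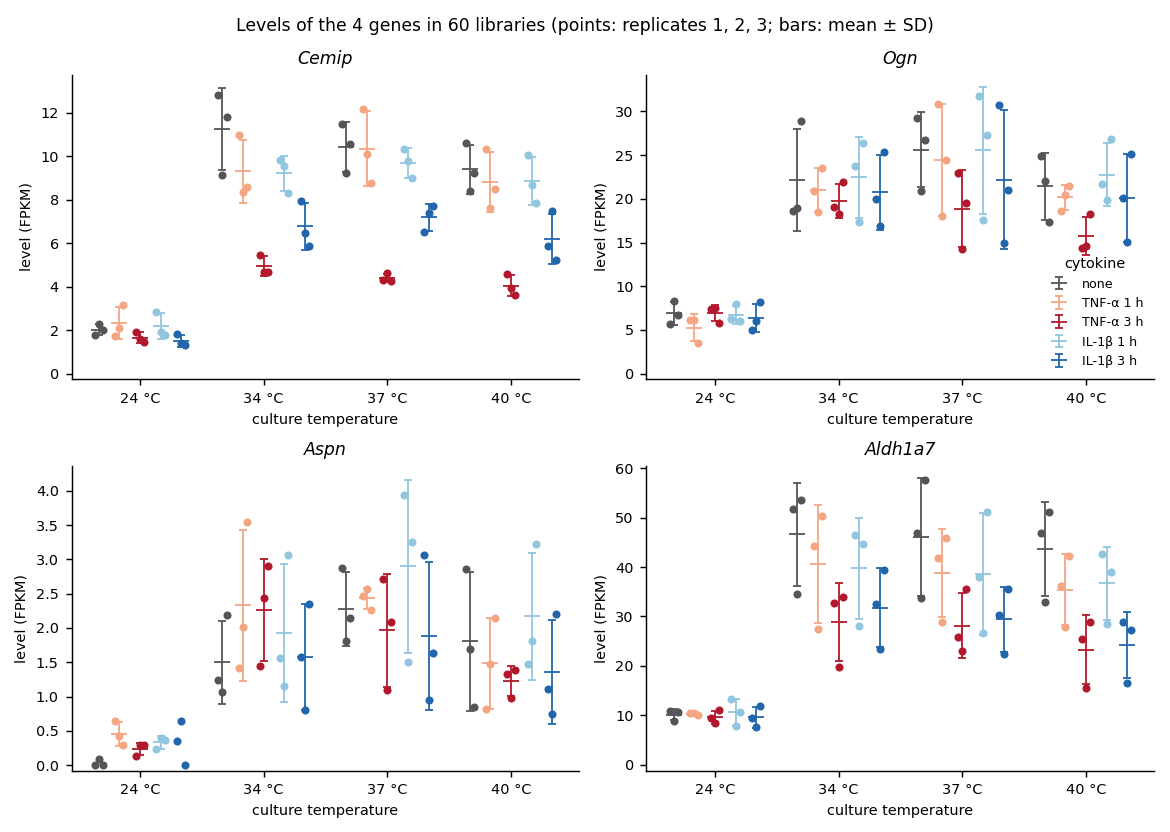
Level of each gene in FPKM (vertical axes, linear) by culture temperature and cytokine condition; points are the 3 replicates, bars the mean ± SD (no bar for groups with a library listed at 0). In all 4 panels the 15 libraries at 24 °C sit below the 45 libraries at 34, 37 and 40 °C, and in the Cemip panel the 3 h TNF-α groups sit lowest among those 3 temperatures. The unstimulated groups at 24 and 37 °C led to the choice of the genes.

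All 4 members were called in each of these 4 conditions, beside 28.3% of all genes with 1 h of TNF-α, 28.5% with 3 h of TNF-α, 21.9% with 1 h of IL-1β and 25.5% with 3 h of IL-1β. The log2(FPKM + 1) differences ran from -1.79 to -1.02 in Cemip, -2.02 to -1.31 in Ogn, -1.495 to -1.08 in Aspn and -1.79 to -1.44 in Aldh1a7 (limma, highest adjusted p = 0.00483, for Aspn after 3 h of IL-1β). That Aspn call was lost without replicate 1 of the 37 °C group (-0.80, adjusted p = 0.0706) and in a fit of its 2 groups alone (-1.08, adjusted p = 0.0753). The separation also covered the other temperatures. Over all 60 libraries, the highest value at 24 °C and the lowest at any other temperature were 3.14 and 3.61 FPKM for Cemip, 8.26 and 14.21 for Ogn, 0.65 and 0.75 for Aspn, and 13.33 and 15.49 for Aldh1a7, an order that 1.07% of all genes share. The 60 libraries include the unstimulated ones that led to the choice, so this order was partly set by it. Among cytokine-treated libraries alone, 1.65% of all genes had all 12 libraries at 24 °C below all 36 at the other temperatures. Each member was among these 167 genes, though these libraries are not independent of the choice either. Every gene of the table reached 1 FPKM in at least 3 libraries. Aspn did so only outside 24 °C, so its calls and separation at 24 °C depend in part on how genes entered the table. Rescaling the libraries by median ratios changed none of the members' calls at 24 °C.

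At 34 °C, treated cells did not differ detectably from those at 37 °C in any member. Cemip averaged 7.56 ± 2.09 FPKM at 34 °C and 7.92 ± 2.59 at 37 °C, Ogn 21.0 ± 3.17 and 22.8 ± 6.24, Aspn 2.02 ± 0.842 and 2.29 ± 0.897, and Aldh1a7 35.2 ± 9.77 and 33.8 ± 9.21 (SD, n = 12 each). The differences were -0.04 for Cemip (95% interval -0.19 to 0.11), -0.08 for Ogn (-0.31 to 0.15), -0.12 for Aspn (-0.42 to 0.17) and 0.05 for Aldh1a7 (-0.22 to 0.33), and 0 of 4 were called, beside 10.6% of all genes (limma; 0 of 4 also at an unadjusted p under 0.05). Each of these intervals excludes a fall as large as that of the same gene at 24 °C.

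At 40 °C all 4 members had lower means than at 37 °C, and none passed the test. Treated cells had 6.99 ± 2.30 FPKM of Cemip at 40 °C and 7.92 ± 2.59 at 37 °C, with 19.7 ± 3.90 and 22.8 ± 6.24 for Ogn, 1.56 ± 0.703 and 2.29 ± 0.897 for Aspn, and 29.9 ± 8.82 and 33.8 ± 9.21 for Aldh1a7 (SD, n = 12 each). The log2(FPKM + 1) differences were -0.16 for Cemip (95% interval -0.30 to -0.01, adjusted p = 0.117), -0.18 for Ogn (-0.41 to 0.06), -0.36 for Aspn (-0.65 to -0.06, adjusted p = 0.0689) and -0.18 for Aldh1a7 (-0.46 to 0.09), by limma. None was called, beside 24.5% of all genes, while Cemip and Aspn had an unadjusted p under 0.05. The Aspn difference passed the threshold when any of 6 single libraries, or all replicates numbered 3, were left out. The Aldh1a7 difference passed it with replicate number added to the fit (limma, adjusted p = 0.0186). In single conditions 0 of 4 members were called by limma at either temperature, also at an unadjusted p under 0.05. Of all genes, 0.316% were called at 34 °C with 1 h of TNF-α, 1.75% with 3 h of TNF-α, 0.247% with 1 h of IL-1β and 1.57% with 3 h of IL-1β. At 40 °C these shares were 5.55%, 6.35%, 4.2% and 4.8%, in the same order. In unstimulated cells at 40 against 34 °C, 0 of 4 were called, at an unadjusted p too, beside 9.7% of all genes.

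**Figure D2:**
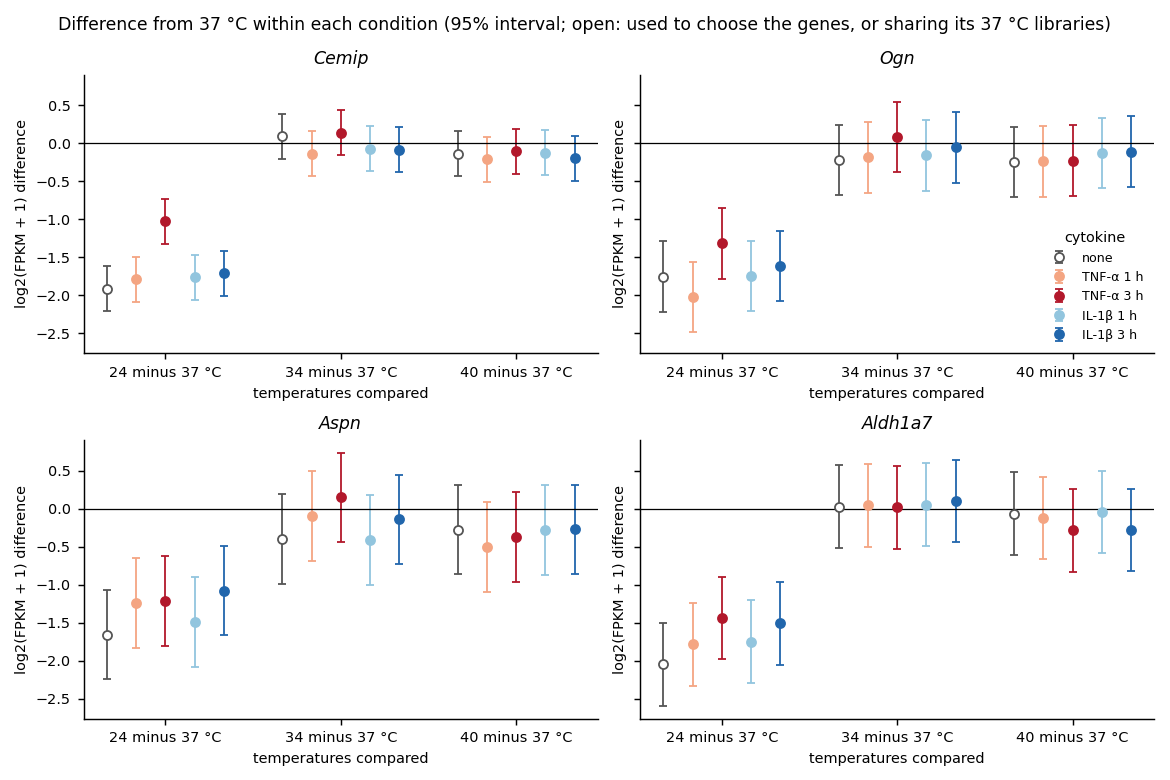
Difference from 37 °C on the log2(FPKM + 1) scale (vertical axes) at 24, 34 and 40 °C in each cytokine condition, with 95% intervals from the fit. Open points are unstimulated cells, which share libraries with the choice of the genes; the 24 °C differences lie at -1.02 or below in treated cells, and those at 34 and 40 °C have intervals that reach 0.

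Cemip was lower after 3 h of either cytokine than in unstimulated cells at 34 and 40 °C. At 34 °C it had 5.48, 4.68 and 4.70 FPKM after 3 h of TNF-α, against 12.84, 9.14 and 11.79 in unstimulated cells, a difference of -1.03 (SE 0.147, limma adjusted p = 5.25e-07). At 40 °C it had 4.58, 3.96 and 3.61 FPKM after 3 h of TNF-α, against 10.63, 8.39 and 9.21 in unstimulated cells, a difference of -1.04 (adjusted p = 2.84e-07). The groups did not overlap at either temperature, and the level with TNF-α was 44% of the unstimulated level at 34 °C and 43% at 40 °C. With 3 h of IL-1β Cemip had 7.96, 6.49 and 5.88 FPKM at 34 °C (-0.65, adjusted p = 0.00271) and 5.86, 7.48 and 5.25 at 40 °C (-0.54, adjusted p = 0.012), against the same unstimulated cells. These 2 IL-1β calls were lost when only the compared groups were fitted (adjusted p = 0.125 at 34 °C and 0.131 at 40 °C). The 40 °C one was also lost without replicate 1 of the unstimulated group or replicate 1 or 3 of the IL-1β group (adjusted p = 0.0511 to 0.111).

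Aldh1a7 was also lower after 3 h of either cytokine at 40 °C. It had 25.44, 15.49 and 28.96 FPKM with TNF-α, against 46.85, 32.94 and 51.05 in unstimulated cells, a difference of -0.90 (SE 0.271, limma adjusted p = 0.0131). It had 28.91, 16.64 and 27.30 FPKM with IL-1β, against the same cells, a difference of -0.83 (adjusted p = 0.043). Each group's values stood below every unstimulated one. Both calls were lost when only the compared groups were fitted (adjusted p = 0.0821 and 0.146). They were also lost without replicate 1 or 3 of the unstimulated group, without replicate 2 of the cytokine group, and for IL-1β without its replicate 3 (adjusted p = 0.0552 to 0.269). At 34 °C Aldh1a7 had 32.80, 19.72 and 33.90 FPKM after 3 h of TNF-α, against 51.73, 34.58 and 53.55 in unstimulated cells. That difference of -0.69 did not pass (adjusted p = 0.0908), but did without replicate 2 of the unstimulated group (-0.89, adjusted p = 0.0474). With 3 h of IL-1β it had 32.50, 23.45 and 39.35 FPKM at 34 °C (-0.54, adjusted p = 0.306). With replicate number added to the fit, both 40 °C calls stayed and both 34 °C differences were called. Those 34 °C adjusted p-values were 2.6e-05 with TNF-α and 0.00187 with IL-1β (limma). The labels do not say what a replicate number shares.

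Ogn and Aspn showed no called response at 34 or 40 °C. Ogn had 14.41, 14.63 and 18.30 FPKM after 3 h of TNF-α at 40 °C, against 24.91, 22.05 and 17.31 in unstimulated cells (-0.41, 95% interval -0.88 to 0.05, adjusted p = 0.238). Its other responses at these temperatures lay between -0.13 and 0.09. Aspn responses lay between -0.27 and 0.39, with values that overlapped in every comparison. After 3 h of TNF-α, 1 of 4 members was called at 34 °C beside 12.6% of all genes, and 2 of 4 at 40 °C beside 19.3%. After 3 h of IL-1β, 1 of 4 was called at 34 °C beside 5.28%, and 2 of 4 at 40 °C beside 8.65%. After 1 h, 0 of 4 members were called with either cytokine (none at an unadjusted p under 0.05 either), beside 1.72% (TNF-α) and 1.16% (IL-1β) of genes at 34 °C and 5.37% and 3.16% at 40 °C.

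The responses at 37 and 24 °C use unstimulated libraries that led to the choice and are given without a test. At 37 °C the 3 h TNF-α difference was -1.07 for Cemip, -0.43 for Ogn, -0.17 for Aspn and -0.68 for Aldh1a7. The 3 h IL-1β difference there was -0.48 for Cemip, -0.24 for Ogn, -0.24 for Aspn and -0.62 for Aldh1a7. At 24 °C the corresponding TNF-α differences were -0.19, 0.01, 0.27 and -0.07, in the same order of genes, and the IL-1β differences were -0.27, -0.11, 0.34 and -0.08.

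Comparing 3 h with 1 h of cytokine avoids the unstimulated cells. Cemip fell between these times of TNF-α at 34, 37 and 40 °C. At 37 °C it had 4.32, 4.62 and 4.28 FPKM after 3 h, against 12.19, 10.13 and 8.76 after 1 h (-1.06, SE 0.147, limma adjusted p = 5.29e-07). At 34 °C it had 5.48, 4.68 and 4.70 FPKM after 3 h, against 10.97, 8.35 and 8.61 after 1 h (-0.79, adjusted p = 0.000167). At 40 °C it had 4.58, 3.96 and 3.61 FPKM after 3 h, against 10.35, 7.64 and 8.5 after 1 h (-0.96, adjusted p = 5.24e-06). At none of these temperatures did the times overlap. At 24 °C Cemip had 1.92, 1.61 and 1.46 FPKM after 3 h, against 1.72, 2.11 and 3.14 after 1 h, which overlap (-0.30, adjusted p = 0.344). With TNF-α 1 of 4 members was called at each of 34, 37 and 40 °C, beside 6.49%, 8.51% and 14.3% of all genes, and 0 of 4 at 24 °C, beside 1.4% (Cemip alone had an unadjusted p under 0.05 there).

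The change of Cemip with time in TNF-α was itself smaller at 24 °C than at 37 °C. The difference of the 2 log2 changes was 0.76 (SE 0.208, 95% interval 0.34 to 1.18, limma adjusted p = 0.0161), and 6.85% of all genes were called for this term. It lost its call with a pseudocount of 0.1 in place of 1 (0.78, adjusted p = 0.052) and when only the 4 groups were fitted (adjusted p = 0.124). It also lost it without replicate 1 of TNF-α 1 h at 24 °C (0.63, adjusted p = 0.0771), TNF-α 3 h at 24 °C (0.69, adjusted p = 0.0509) or TNF-α 1 h at 37 °C (0.65, adjusted p = 0.0709). As a ratio of means, the 3 h level of Cemip was 71.6% of the 1 h level at 24 °C and 42.5% at 37 °C. For Ogn the same term was 0.71 (SE 0.326, adjusted p = 0.21), for Aldh1a7 0.35 and for Aspn 0.02, none of them called. For the 5 other such terms 0 of 4 members were called, at an unadjusted p under 0.05 too. The shares of all genes called were 2.11% for IL-1β at 24 °C, 0% for TNF-α and 0.00988% for IL-1β at 34 °C, and 0.366% for TNF-α and 0.0889% for IL-1β at 40 °C.

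With IL-1β, Cemip was lower after 3 h than after 1 h by a similar amount at every temperature (-0.33 at 24 °C, -0.40 at 34 °C, -0.39 at 37 °C and -0.46 at 40 °C), and none of these passed the test (limma, lowest adjusted p = 0.0543, at 40 °C). The 40 °C difference passed under 6 of the alternatives tried. At 34, 37 and 40 °C the 3 h and 1 h values did not overlap, and at 24 °C they did. For IL-1β 0 of 4 members were called at any temperature (at an unadjusted p under 0.05, Cemip at all 4 and Aldh1a7 at 40 °C), beside 0.435% of genes at 24 °C, 2.1% at 34 °C, 2.68% at 37 °C and 5.25% at 40 °C. Aldh1a7 had 25.44, 15.49 and 28.96 FPKM after 3 h of TNF-α at 40 °C, against 36.22, 27.83 and 42.22 after 1 h. That difference of -0.61 (95% interval -1.15 to -0.06) did not pass the adjustment (adjusted p = 0.132), nor did the one with IL-1β (-0.59, adjusted p = 0.239). With replicate number added to the fit both were called (limma, adjusted p = 0.000242 and 0.000701). So were the TNF-α differences of Aldh1a7 between 3 h and 1 h at 34 and 37 °C (adjusted p = 0.00607 and 0.00932).

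**Figure D3:**
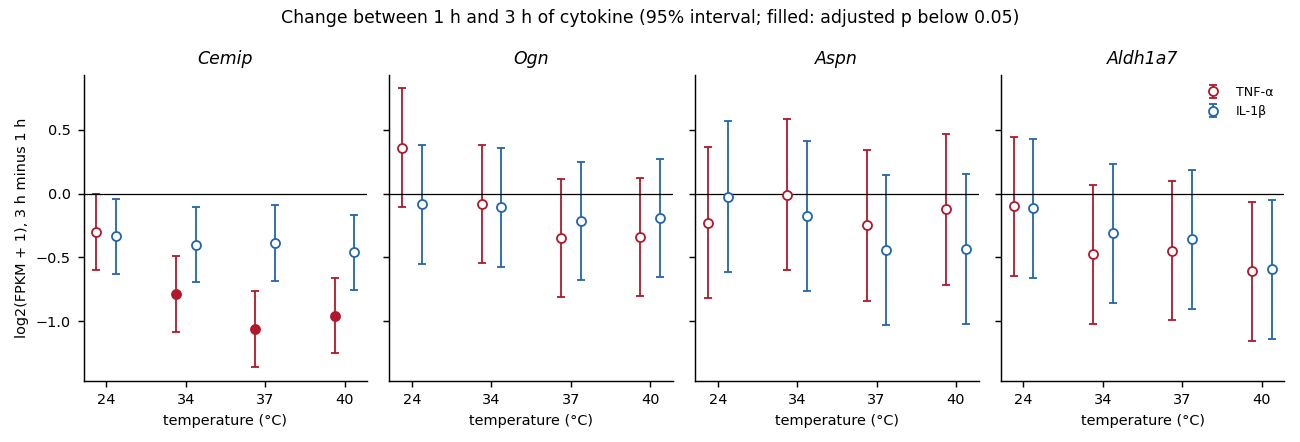
Difference between 3 h and 1 h of each cytokine on the log2(FPKM + 1) scale (vertical axis) by temperature, with 95% intervals; filled points have an adjusted p below 0.05. The 3 filled points are Cemip with TNF-α at 34, 37 and 40 °C, at -0.79, -1.06 and -0.96, while its 24 °C point lies at -0.30.

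Cemip was lower with TNF-α than with IL-1β at 3 h, at 37 and 40 °C. At 37 °C Cemip had 4.32, 4.62 and 4.28 FPKM with TNF-α, against 6.51, 7.38 and 7.70 with IL-1β (-0.60, SE 0.147, limma adjusted p = 0.0073, beside 4.14% of all genes called). At 40 °C it had 4.58, 3.96 and 3.61 FPKM with TNF-α, against 5.86, 7.48 and 5.25 with IL-1β (-0.50, adjusted p = 0.0276, beside 5.56%). At 34 °C the values were 5.48, 4.68 and 4.70 with TNF-α, against 7.96, 6.49 and 5.88 with IL-1β (-0.38, adjusted p = 0.248, beside 2.42%). In these 3 comparisons all TNF-α values were lower than all IL-1β values. At 24 °C the cytokines overlapped (0.09, adjusted p = 0.981, beside 0.0889%). Over the 4 temperatures the 3 h difference was -0.35 (SE 0.0734, adjusted p = 0.000584), and 9.57% of genes were called. Leaving out all replicates numbered 2 ended that call (-0.32, adjusted p = 0.0783). The 37 °C call ended in a fit of its 2 groups alone (adjusted p = 0.0745) and without replicate 3 of IL-1β (adjusted p = 0.0508). The 40 °C call ended in such a fit (adjusted p = 0.182) and without replicate 1 or 2 of IL-1β or 2 or 3 of TNF-α (adjusted p = 0.0545 to 0.238).

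After 1 h the cytokines did not differ detectably in any member (Cemip 0.03, 95% interval -0.12 to 0.18, averaged over the temperatures), with 0 of 4 called by limma, also at an unadjusted p under 0.05, beside 0.524% of all genes. Neither did they at 3 h for Ogn (-0.11, -0.34 to 0.12), Aspn (0.08, -0.22 to 0.37) or Aldh1a7 (-0.07, -0.34 to 0.21).

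Ordered by mean level, the 5 groups at 24 °C were the lowest of the 20 for each member, and the order above them differed between genes. For unstimulated cells, a place of 24 °C below 37 °C was set by the choice. For Cemip, 24 °C held 1.51 to 2.32 FPKM. The 3 h TNF-α groups followed (4.05 at 40 °C, 4.41 at 37 °C, 4.95 at 34 °C), then the 3 h IL-1β groups (6.20 at 40 °C, 6.78 at 34 °C, 7.20 at 37 °C). The 1 h and unstimulated groups came last, from 8.83 (1 h of TNF-α, 40 °C) to 11.3 (unstimulated, 34 °C). Above 24 °C the values of neighbouring groups in this order overlapped, except for TNF-α 3 h at 34 °C, which lay above that at 37 °C. For Aldh1a7, 24 °C held 9.64 to 10.6 FPKM. Above it came the 6 groups at 3 h (23.3 to 31.8), the 6 at 1 h (35.4 to 40.7) and the 3 unstimulated ones (43.6 to 46.6), with wide overlap between neighbours. For Ogn, 24 °C held 5.26 to 6.90 FPKM, and the rest ran from 15.8 (3 h of TNF-α, 40 °C) to 25.6 (unstimulated, 37 °C). Aspn ran from 1.23 (3 h of TNF-α, 40 °C) to 2.90 FPKM (1 h of IL-1β, 37 °C) outside 24 °C. The values of neighbouring groups in the Ogn and Aspn orders outside 24 °C all overlapped.

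Spread between replicates was shared by some members. Replicate 2 held the lowest Aldh1a7 value in 15 of 15 groups outside 24 °C, the lowest Ogn value in 11, the lowest Aspn value in 9 and the lowest Cemip value in 6. After the group means were taken away on the log2(FPKM + 1) scale, Ogn and Aspn deviated together over the 45 libraries at 34, 37 and 40 °C (Pearson r = 0.826, Spearman rho = 0.813, r = 0.799 without the 2 most distant libraries). For Ogn and Aldh1a7 r was 0.614, for Aspn and Aldh1a7 0.424, and for Cemip with Ogn, Aspn and Aldh1a7 -0.156, -0.311 and 0.098. Over the 15 libraries at 24 °C, where Aspn rests on few fragments, Ogn and Aspn gave r = -0.039 (rho = 0.209). These are descriptions. The values of a library share its RNA, its depth and its replicate number.

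**Figure D4:**
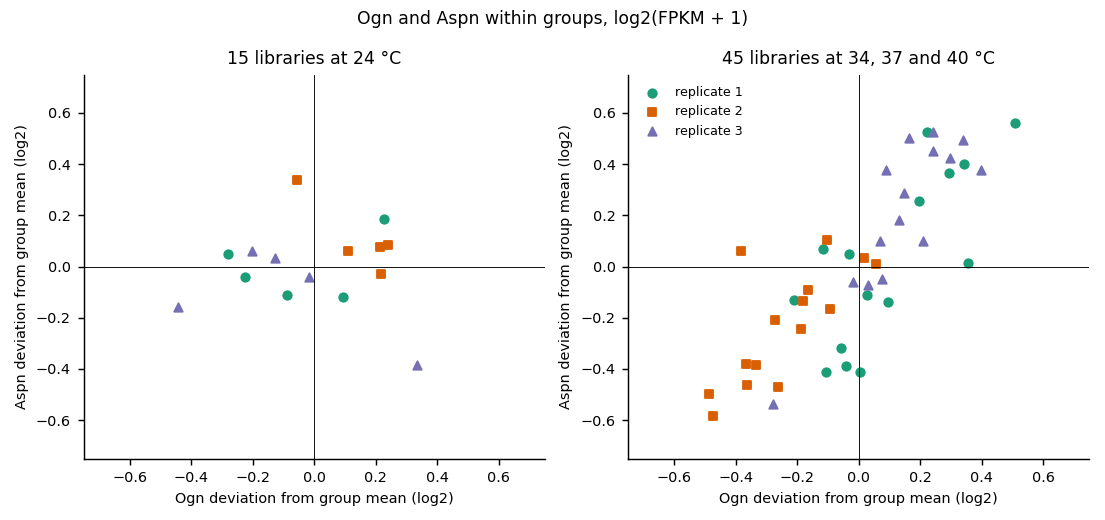
Deviation of Ogn (horizontal axis) and Aspn (vertical axis) from the mean of their group, log2 scale, at 24 °C (left) and at 34, 37 and 40 °C (right); each point is a library, and symbols give its replicate number. At 34, 37 and 40 °C the points rise together (r = 0.826), with replicate 2 mostly at the lower left; at 24 °C r was -0.039.

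Ogn and Aspn are neighbours on mouse chromosome 13, where Ecm2, Aspn, Omd and Ogn all lie within the span of Cenpp, on its opposite strand, in the GENCODE M21 annotation. Omd (osteomodulin), another small leucine-rich proteoglycan of that cluster, was lower at 24 °C too. With TNF-α it was listed at 0, 0.33 and 0.16 FPKM after 1 h at 24 °C, against 1.71, 1.58 and 1.64 at 37 °C. After 3 h of TNF-α it had 0.85, 1.08 and 0.30 FPKM at 24 °C, against 2.40, 1.44 and 0.85 at 37 °C. The groups stood apart at 1 h and overlapped at 3 h. With IL-1β it was listed at 0, 0.32 and 0 FPKM after 1 h at 24 °C, against 2.79, 1.94 and 2.27 at 37 °C. After 3 h of IL-1β it was listed at 0.91, 0 and 0.62 FPKM at 24 °C, against 1.63, 0.90 and 1.58 at 37 °C. The IL-1β groups stood apart at 1 h and overlapped at 3 h, and Omd was called in each condition except 3 h of TNF-α (limma adjusted p = 0.0606). Averaged over the treated conditions the Omd difference was -1.004 (SE 0.110, limma adjusted p = 1.5e-10), at rank 117 from the most lowered gene. Like Aspn, Omd reached 1 FPKM in 3 libraries only outside 24 °C. Cenpp, a centromere protein gene, averaged 6.04 ± 1.49 FPKM at 24 °C and 5.01 ± 1.07 at 37 °C (SD, n = 12 each; 0.22, adjusted p = 0.0586). Its exons share 7 bases with those of Aspn and 0 with those of Ogn and Omd. Aldh1a7 shares 7.49% of its 50-base stretches with Aldh1a1 and 0.05% of its 100-base stretches. Aldh1a1 is not analysed here, so how far its reads enter the Aldh1a7 values was not tested.

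In treated cells, other genes of hyaluronan turnover moved less than Cemip at 24 °C, in either direction. Has2, a hyaluronan synthase, had 4.29 ± 1.31 FPKM in treated cells at 24 °C and 3.75 ± 0.947 at 37 °C (0.14, adjusted p = 0.257). In unstimulated cells Has2 was higher at 24 °C, at 3.00, 3.90 and 3.89 FPKM against 1.72, 1.82 and 1.53 at 37 °C, which was not tested. Hyal2, a hyaluronidase anchored at the cell surface, had 16.4 ± 1.75 at 24 °C and 15.0 ± 2.40 at 37 °C (0.13, adjusted p = 0.0937). Hyal1, the lysosomal hyaluronidase, fell by 0.37 (adjusted p = 0.00325), and Cd44, the main hyaluronan receptor, was at 122 ± 8.22 FPKM at 24 °C and 178 ± 47.8 at 37 °C (-0.50, adjusted p = 3.2e-18, limma). Ugp2, which makes the UDP-glucose that hyaluronan precursors come from, was lower (-0.35), and the hyaluronan receptor Hmmr was higher (0.32). Of 12 measured genes of hyaluronan metabolism and binding (24 listed), 4 were called higher at 24 °C, 3 lower and 5 not called, with a median of 0.135. Over all genes 25.3% were called higher and 27% lower, with a median of -0.0056. At 34 °C, Has2 had 5.50, 5.00 and 4.32 FPKM after 3 h of TNF-α, against 2.32, 2.31 and 1.91 in unstimulated cells (0.90, adjusted p = 0.00186), and at 40 °C the difference was 0.71 (adjusted p = 0.0121). Of all genes, 12.6% were called for this response at 34 °C and 19.3% at 40 °C. With 3 h of TNF-α the synthase gene was thus higher in the same libraries in which Cemip was lower. With 3 h of IL-1β, where Cemip was also called lower, Has2 was not called. Its differences there were 0.48 at 34 °C (limma adjusted p = 0.215) and 0.31 at 40 °C (adjusted p = 0.439).

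Among the other small leucine-rich proteoglycans, 5 of 8 measured (16 listed) were called lower at 24 °C and 1 higher, with a median of -0.27. Beside this and the next 2 lists, 27% of all genes were called lower and 25.3% higher. After Omd the largest falls were those of Prelp (-0.48), Podn (-0.39) and Tsku (-0.33). Podn was barely expressed, at 0 to 0.53 FPKM in treated cells at 24 °C and 0.26 to 1.35 at 37 °C. As for Aspn, the lower calls of Omd and Podn can depend in part on how genes entered the table. Prelp, which anchors basement membranes to collagen, stood at 87.4 ± 6.98 FPKM at 24 °C and 123 ± 14.1 at 37 °C. Of 24 fibrillar collagen and collagen-processing genes (27 listed), 10 were lower, 4 higher and 10 not called, with a median of -0.04. The lower ones included Postn (periostin; 65.0 ± 8.62 FPKM at 24 °C and 118 ± 31.1 at 37 °C, -0.81), Col5a3 (-0.61), the lysyl oxidase Loxl4 (-0.57) and Col3a1 (-0.54). Of 18 matrix proteases and inhibitors (37 listed) 4 were lower and 4 higher (22.2% each), near the shares over all genes. Adamts4, an enzyme that cleaves the proteoglycan aggrecan, differed in treated cells as much as the members (2.56 ± 0.527 FPKM at 24 °C and 10.3 ± 3.37 at 37 °C, -1.61). Its treated values at 37 °C ran from 5.16 to 16.51 FPKM, and its response to the cytokines was not tested. The next largest changes were those of the protease inhibitors Serpine2 (-0.60) and Timp3 (0.40) and of the metalloprotease Mmp23 (-0.37).

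Other aldehyde dehydrogenases moved less than Aldh1a7. Of 13 measured (19 listed), 4 were called higher at 24 °C (30.8%), 3 lower (23.1%) and 6 not, with differences between -0.76 (Aldh6a1) and 0.36 (Aldh1l1). These shares are near those over all genes, 25.3% higher and 27% lower, which also stand beside the next 2 lists. Aldh1l2 (-0.39) and Aldh18a1 (-0.31) were the other 2 called lower. Of 6 measured genes of retinoid handling (16 listed), 4 were higher and 1 lower. Crabp2, a carrier of retinoic acid, had 12.6 ± 1.68 FPKM at 24 °C and 4.93 ± 1.36 at 37 °C (1.22), and Cyp26b1, which degrades retinoic acid, rose by 0.74. The retinoic acid receptor Rara (0.54) and the retinol dehydrogenase Rdh10 (0.42) were higher too. Of 16 TGF-β signalling genes (23 listed) 6 were higher and 7 lower. In treated cells the inhibitory Smad7 (1.12) and Smad6 (0.99) and Ski (0.46), a repressor of Smad-dependent transcription, were higher at 24 °C. The ligand Tgfb2 was lower (-0.64). All calls on these lists are from limma at an adjusted p below 0.05, in cytokine-treated cells only. A difference in level and a difference in cytokine response cannot be told apart in them.

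**Figure D5:**
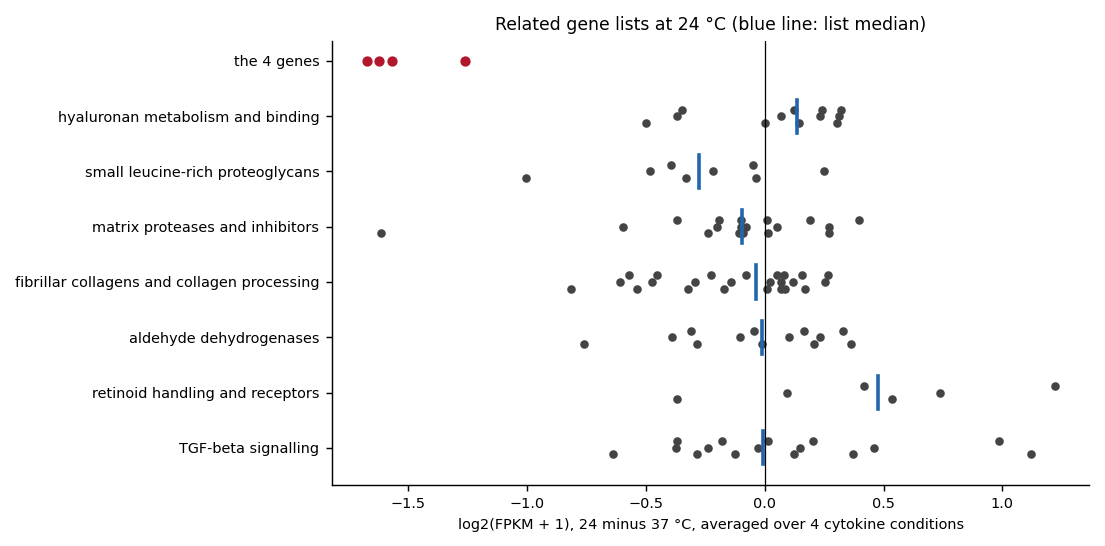
Difference between 24 and 37 °C averaged over the 4 cytokine conditions, log2(FPKM + 1) scale (horizontal axis), for the 4 genes (red) and for the measured genes of 7 related lists (grey points; blue lines are list medians). The 4 genes lie between -1.67 and -1.26, and Adamts4 (-1.61) and Omd (-1.004) are the only listed genes at -1 or below.

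Over the 20 group means, the gene with the pattern most like Cemip was Svep1, a large secreted adhesion protein (Pearson r = 0.986, and 0.938 over the 15 groups outside 24 °C). Vegfd, a lymphatic growth factor (0.984 and 0.936), Slc16a4, Pde2a and Smoc1 followed. Aldh1a7 itself was sixth in likeness to Cemip (0.977 and 0.907). The genes most like Aldh1a7 were Col12a1, a fibril-associated collagen (0.991 and 0.932), Slc16a4, Parva, Col4a5 and Cd109. Ogn was most like Postn (0.983), yet outside 24 °C that r was 0.593, and Col12a1 (0.980 and 0.826), Col4a5, Itga8 and Serinc3 came next. Aspn was most like Gas6, a ligand of TAM receptors (0.958 and 0.709), Dhrs9, Ilk, Tmem119 and Ogn. With 5 of the 20 groups at 24 °C, a large drop at that temperature alone gives a high r, and the groups share their libraries between genes.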

How the data were processed

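The deposited table gives FPKM per gene and library, made by the authors; per the submitters' processing notes, the build is GRCm39 and the tools are edgeR, RSEM 1.3.3 and STAR 2.7.11b, with no role or order given. Its gene identifiers are those of GENCODE M21, which is built on GRCm38, so coordinates are given only for the RefSeq promoter windows. Values were tested as log2(FPKM + 1) in limma 3.58.1 (R 4.3.3), with 1 mean for each of 20 groups over 60 libraries, a mean-variance trend, two-sided tests and Benjamini-Hochberg adjustment over all 10122 genes within each of 48 comparisons (threshold 0.05; 40 residual degrees of freedom). A filter (FPKM of 1 in 3 libraries) removed 0 genes. Another 11 comparisons that use unstimulated 24 or 37 °C libraries are given without a test. The fit was tested on simulated data.

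The 4 genes, the gene lists, the markers and the tests were chosen with earlier results of these data known. Named are the 4 genes, the 5 genes most like each by Pearson r over group means, up to 4 called genes of largest change per list, and fixed relatives (Has2, Hyal1, Hyal2, Omd, Cenpp; Has1, Has3, Cemip2, Ecm2, Dcn, Lum, Aldh1a1, Aldh1a2, Aldh1a3 and Anxa1 are not analysed here). Depth was estimated from low values of 872 single-transcript genes, as the depth that best fitted them to whole fragments by a mean cosine. At that depth 90.0% of 9070 values lay within 0.15 of whole fragments, but the fit favours this, so it is no check. Replicates of a group correlated at r = 0.969 to 0.983 over 60 pairs, and no 2 libraries were identical.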

Additional observations from a re-analysis of the deposited data

Results flagged for a closer look

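The change of Cemip between 1 h and 3 h of TNF-α differed between 24 and 37 °C by 0.76 on the log2(FPKM + 1) scale (limma interaction term, adjusted p = 0.0161). Cemip was at 1.66 ± 0.235 FPKM after 3 h and 2.32 ± 0.734 after 1 h at 24 °C, and at 4.41 ± 0.186 after 3 h and 10.4 ± 1.73 after 1 h at 37 °C (SD, n = 3 each). It was marked because the test of the difference between the 2 temperatures passed the threshold. Of the 24 interaction terms of the 4 genes it was the only one to do so.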

How the results depend on the processing

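Of 192 results (4 genes in 48 comparisons), 33 were called and 24 of these stayed called under every alternative run, while 150 of the 159 that were not called stayed so. No called result changed sign. The alternatives were pseudocounts of 0.1 and 5, no filter and a stricter one, rescaling by median ratios, no mean-variance trend, a replicate block, fits of the compared groups alone, and leaving out each replicate. In the average over treated conditions, all 4 falls at 24 °C stayed called; without single libraries or replicate numbers they ran from -1.61 to -1.53 in Cemip, -1.95 to -1.48 in Ogn, -1.5 to -1.09 in Aspn and -1.70 to -1.51 in Aldh1a7. The pseudocount moved their size more: with 0.1 and 5 the averages were -1.95 and -0.88 in Cemip, -1.81 and -1.27 in Ogn, -2.49 and -0.44 in Aspn, and -1.71 and -1.33 in Aldh1a7. The Aspn difference at 40 °C ran from -0.52 to -0.093 without single libraries or numbers, and 7 of these 27 fits called it. The Cemip difference between TNF-α and IL-1β at 3 h ran from -0.37 to -0.32, and lost its call without replicate 2. The causes were not tested.

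The labels do not say what a replicate number shares. Over all genes, deviations from the group mean correlated above 0.1 in 24 of 165 same-numbered library pairs, and in all 3 pairs for 1 of 55 pairs of groups (1 h of TNF-α with 1 h of IL-1β at 34 °C, lowest r = 0.12). As a hint from the data and not the design, 55 of 60 libraries correlated best with their own number among the other groups of their temperature (10 of 15 at 24 °C). The fit with a replicate block ended no call of a member and made 8 more. For Aldh1a7 it called 40 against 37 °C on average (-0.18, adjusted p = 0.0186), 3 h of TNF-α (adjusted p = 2.6e-05) and of IL-1β (adjusted p = 0.00187) against unstimulated cells at 34 °C, 3 h against 1 h of TNF-α at 34 °C (adjusted p = 0.00607), 37 °C (adjusted p = 0.00932) and 40 °C (adjusted p = 0.000242), and 3 h against 1 h of IL-1β at 40 °C (adjusted p = 0.000701). For Cemip it called the last of these comparisons (adjusted p = 0.0237). The block moved 9 of 48 counts over all genes by more than 1.5 times (142 to 238 for 3 h against 1 h of TNF-α at 24 °C). Fitting the compared groups alone, with fewer degrees of freedom, moved 41 of them, for example 2884 to 1919 for 24 against 37 °C with 3 h of TNF-α, 643 to 66 for 40 against 37 °C, 861 to 299 for 3 h against 1 h of TNF-α at 37 °C, 419 to 142 for TNF-α against IL-1β there and 693 to 379 for the interaction at 24 °C. Depth limits Aspn and Omd most, at a median of about 3.0 fragments each per 24 °C library.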
